A study of Homo sapiens with 3 samples.

Results

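The DEAD and DEAH box RNA helicases were followed across polysome-bound, polysome-unbound and total RNA of H9 cells, an established line of human embryonic stem cells kept in pluripotent conditions with no treatment named. Members were the genes whose single symbol on the array's annotation is DDX or DHX with a number (and at most 1 letter for DDX), without the Y-linked copy. This gave 49 of 18417 named genes, of which 45 passed a filter on low signal that 12063 of all genes passed. Polysome-bound RNA holds transcripts that carry several ribosomes, polysome-unbound RNA is the polysome-free part of the extract, and total RNA was taken from the cells directly. Each source was measured once, on 1 Affymetrix array, so no difference below has a replicate check and no test was run. The sources used here do not say how polysomes were separated, or whether the 3 samples came from the same culture.

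RNA helicases of this superfamily bind RNA and use ATP to open duplexes, strip proteins or remodel RNA-protein complexes. The DEAD box (DDX) members mostly pry short duplexes apart locally and clamp RNA, while the DEAH box (DHX) members move along a strand from its 3′ side. Both are named after the amino acids of the motif that binds and hydrolyses ATP, and they act at nearly every step of an mRNA's life, from splicing, export and ribosome assembly to translation and decay.

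The values are log2 expression, and a level is the value on 1 array. Over the genes past the filter, the bound array had a median of 7.23, the unbound array 5.96 and the array of total RNA 6.20. A relative difference is the log2 difference between 2 arrays minus the difference of these medians, which is 1.26 for bound minus unbound, 1.03 for bound minus total and -0.23 for unbound minus total. A gene counts as apart at a relative difference of 1, which is 2-fold. Background on an array was the 95th percentile of 482 tissue-restricted genes such as olfactory receptors, at 4.40, 3.56 and 3.76 on the bound, unbound and total RNA arrays. Of 12 measured pluripotency markers, 12 exceeded background on every array, with LIN28A at 11.10 and SOX2 at 9.50 in total RNA. Among germ cell markers 1 of 7 did so, DAZL. Levels of different genes are not ranked against each other, because probe sets differ in brightness, and fewer cells with a transcript cannot be told apart from less of it per cell.

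All 45 members past the filter were above background on each of the 3 arrays, and 39 of them also exceeded the 99th percentile of the tissue-restricted genes on each. DDX51 and DDX60 did not exceed that stricter line on any array, DDX28 and DDX60L did so on 1, and DHX34 and DHX37 on 2. The 4 members below the filter were below background on all 3 arrays. The filter rests on the mean of these same 3 arrays against the same tissue-restricted genes. Where the 45 and the 4 lie against background therefore largely follows from it. Of all named genes, 64.9%, 63.2% and 63.6% exceeded background on the bound, unbound and total RNA arrays. The share of all genes past the stricter line is not given here. DDX4 (VASA), the helicase that marks germ cells, had levels of 3.85 in bound, 3.11 in unbound and 3.30 in total RNA. DDX43 had 3.67, 3.05 and 3.30 in the same order, and DDX53, another gene expressed in testis and tumours, had 3.17, 2.45 and 2.94. DHX58 (LGP2), a sensor of viral double-stranded RNA, had 3.47, 2.61 and 3.02. No fold is given for these genes. DDX11, DDX12P, DDX39B and DDX47 lie on probe sets that list several genes and were not analysed here. The plot of levels by role shows every member on each array.

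**Figure D1:**
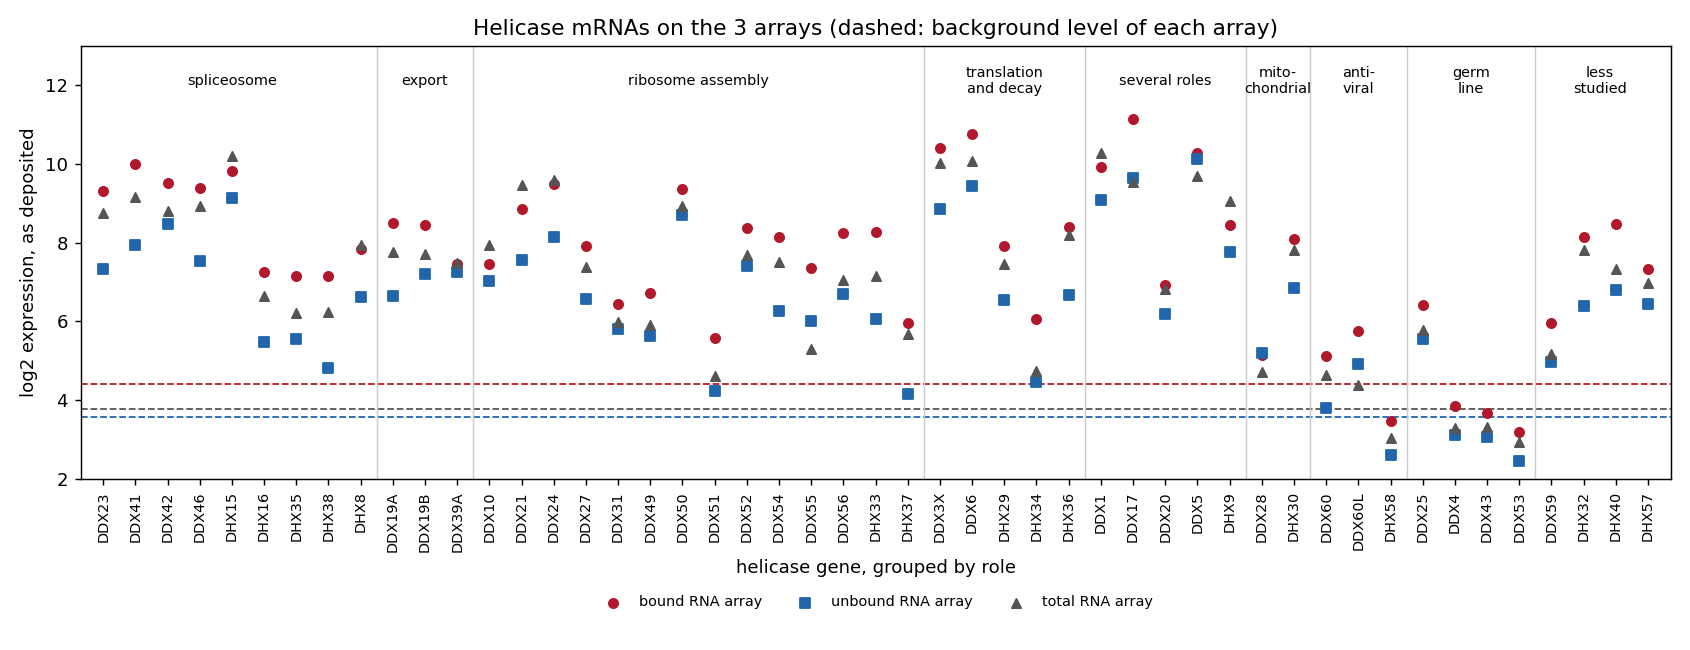
Log2 expression as deposited (y axis) of the 49 helicase genes (x axis, grouped by role) on the bound (red circles), unbound (blue squares) and total RNA (grey triangles) arrays, 1 value each, with dashed lines at the background level of each array. The 4 genes below all 3 lines of their own colour are DDX4, DDX43, DDX53 and DHX58.

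Bound RNA was first set against unbound RNA, which places each helicase transcript relative to the other genes on these 2 arrays. The part of a transcript that was on polysomes was not measured. Most helicase mRNAs lay close to the array medians. Their median relative difference was 0.07, against -0.07 over all genes, and 27 of 45 (60%) lay within 0.5 of 0, against 53.5% of all genes. DHX38 alone passed 2-fold toward bound RNA, which is 2.22% of the members against 6.35% of all genes. DDX28, DDX5 and DDX39A were at least 2-fold lower, 6.67% against 9.91% of all genes. The helicases as a set therefore had no larger share of genes apart than the array as a whole. As deposited, without centring, 30 members passed 2-fold toward bound RNA (66.7%, against 61.4% of all genes) and 0 were lower (against 1.56%).

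DHX38, the DEAH helicase that remodels the spliceosome between the first and the second step of splicing, had levels of 7.16 in bound, 4.80 in unbound and 6.23 in total RNA, a relative difference of 1.10 between bound and unbound. Its bound and total levels kept about the distance of the array medians, and the unbound array was the low one. DHX33, which acts in ribosomal RNA synthesis, followed with 8.27, 6.06 and 7.14 and a relative difference of 0.95. At the other end, DDX28, a helicase of mitochondrial ribosome assembly, had 5.14, 5.20 and 4.71, so that its bound level was not above its unbound level even before centring, and its relative difference was -1.33. Its bound level lay between the 95th and 99th percentile of the tissue-restricted genes (4.40 and 5.93), so it rests on dim signal.

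DDX5 (p68), a coregulator of transcription that also acts in splicing and microRNA processing, was bright throughout, at 10.27 in bound, 10.14 in unbound and 9.70 in total RNA. The unbound array was nearly as high as the bound one, which gave a relative difference of -1.13, or 0.13 as deposited. It shrank to -0.66 after a lowess fit of the difference on mean level was subtracted and to -0.43 after quantile normalization. DDX39A, an mRNA export helicase, had 7.45, 7.25 and 7.49, with a relative difference of -1.06 (0.20 as deposited, and -0.98 without the level filter). DDX10 and DDX31, both of ribosome assembly, came next at -0.84 and -0.62.

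**Figure D2:**
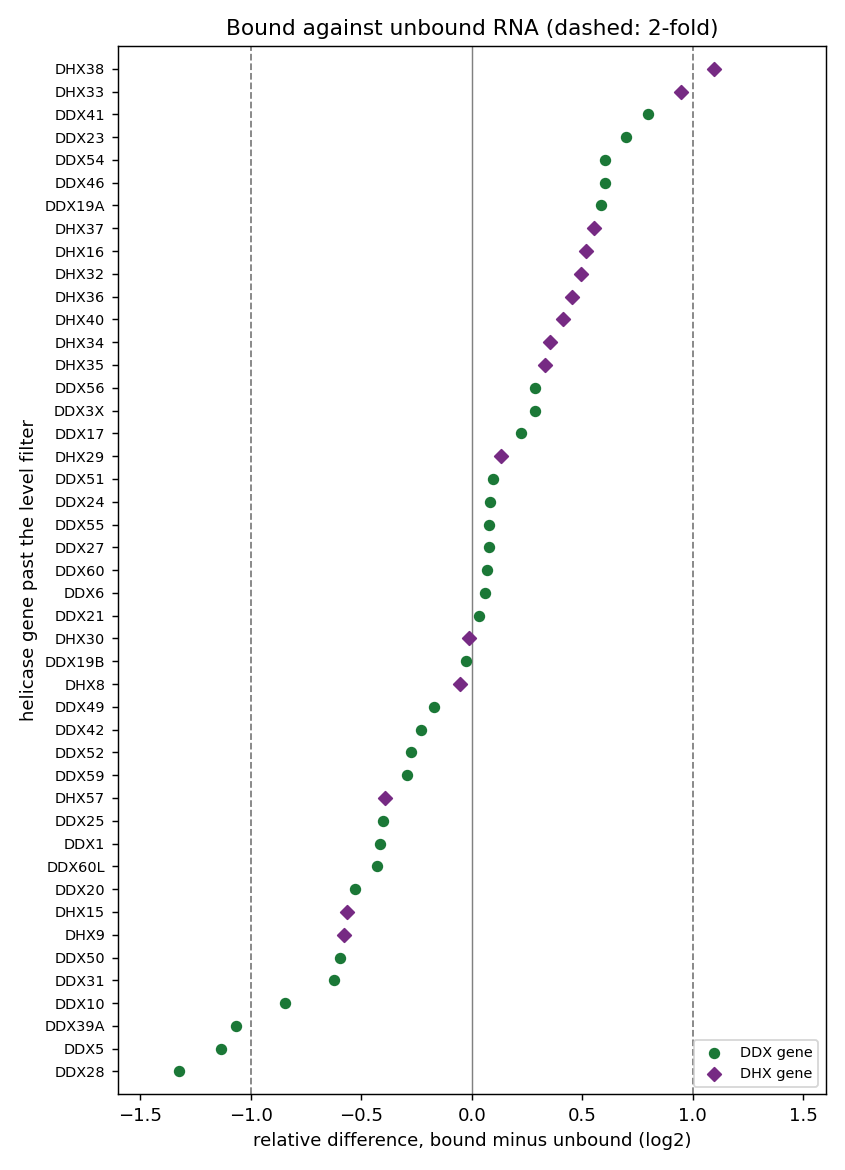
Relative difference between the bound and the unbound array (x axis, log2) of the 45 helicase genes past the level filter (y axis, in order), DDX genes as green circles and DHX genes as purple diamonds, 1 value per gene, with dashed lines at 2-fold. The genes outside the dashed lines are DHX38 on the bound side and DDX28, DDX5 and DDX39A on the unbound side.

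The start of a transcript can bear on its polysome loading, because mRNAs that begin with a C and a run of pyrimidines (terminal oligopyrimidine mRNAs, among them those of ribosomal proteins) form a known class under growth control. In RefSeq's promoter windows of GRCh38.p14, 42 of the 45 members had an entry, and no entry was matched for DDX49, DDX52 and DHX33. A start was counted as this type when the annotated first base is C and the 4 bases after it are each C or T, read on the transcribed strand at that position alone. It was found in 33 of 49 ribosomal protein genes (67.3%), 5.34% of 9714 genes past the filter, 4.04% of all 27305 windows and 4 of the 42 helicases (9.52%). The windows below run from 20 bases before the annotated start to 10 bases from it, with the first 5 transcribed bases in capitals. They show the 4 helicases with such a start, then the lowest and the highest member of the bound and unbound comparison, which lack it.
DDX5 (chr17:64506629-64506658, minus strand): cgccaggccccgccttccccCTCTTttggt
DDX50 (chr10:68901295-68901324, plus strand): cggccgccttgcccccgcttCCTTTcacgc
DDX21 (chr10:68956150-68956179, plus strand): gacccagggtggggaactacCTCTTcctct
DDX54 (chr12:113185469-113185498, minus strand): cgctcctcaggccacgccccCTTCTgcgtt
DDX28 (chr16:68023223-68023252, minus strand): ggcgcgtccgtgacgtcactGATGTgcgct
DHX38 (chr16:72093827-72093856, plus strand): ctgttggcgtaccgttccacACTTGgatcc

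The 4 helicases with a pyrimidine start did not lie together. Their relative differences between bound and unbound RNA were -1.13 for DDX5, -0.60 for DDX50, 0.031 for DDX21 and 0.60 for DDX54, while the 49 ribosomal protein genes had a median of -2.65. Over all genes with a window, the median was -0.49 with such a start, ribosomal proteins included, and -0.023 without. DDX5 and DDX21 share the same first 5 bases, CTCTT, and differed by more than 2-fold in this comparison. This gap depends on the scaling, as the value of DDX5 shrank to -0.66 after the lowess step and to -0.43 after quantile normalization. DDX28, the lowest member, starts with a G. An annotated start is 1 position, and the starts used in H9 cells were not measured.

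Among the spliceosomal helicases, 6 of 9 were above 0 in bound minus unbound, against 25 of 45 helicases and 46.2% of all genes. The median of the 9 was 0.52, the highest of the roles with more than 1 measured member. After DHX38 came DDX41, which joins the late spliceosome, with 10.01 in bound, 7.95 in unbound and 9.17 in total RNA (relative difference 0.80). DDX23, which lets the U6 RNA replace U1 at the 5′ splice site, had 9.30, 7.34 and 8.75 (0.70). DDX46, which remodels the U2 particle at the branch site, had 9.39, 7.53 and 8.92 (0.60), and DHX16, which activates the spliceosome for the first step, had 7.25, 5.47 and 6.65 (0.52). Their unbound levels were the lowest of the 3, as they were in most members. DHX15, which takes spent spliceosomes apart, was on the other side with 9.83, 9.13 and 10.19 (-0.56), and DDX42 (-0.23) and DHX8 (-0.051), which releases the spliced mRNA, were close to the medians.

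The 14 ribosome assembly helicases ranged from DDX10 (-0.84) to DHX33 (0.95) with a median of 0.08, and none was 2-fold apart between bound and unbound RNA. Above 0.5 lay DDX54, with 8.14 in bound, 6.27 in unbound and 7.52 in total RNA, and DHX37, which frees the U3 RNA from the small subunit precursor, with 5.96, 4.14 and 5.66 (0.55). DDX10 had 7.45, 7.03 and 7.95, and DDX31 had 6.44, 5.80 and 5.98. For most others, such as DDX27 (0.077) and DDX24 (0.082), the bound and unbound levels differed by about the offset of the arrays.

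The 5 helicases grouped under cytoplasmic mRNA translation and decay lay between 0.06 and 0.45 in bound minus unbound, where 46.2% of all genes were above 0. DHX9 (-0.58) and DDX1 (-0.42) also act on cytoplasmic mRNA but were grouped under several roles, and both lay below 0. The sign shared by the 5 therefore depends on this grouping, which was made with earlier results of these data known. DDX3X, which helps translation start on mRNAs with structured leaders, had levels of 10.41 in bound, 8.87 in unbound and 10.03 in total RNA (0.28). DDX6, a repressor of translation and partner of decapping, had 10.76, 9.44 and 10.09 (0.062). DHX29, which assists ribosomal scanning, had 7.92, 6.53 and 7.46 (0.13). DHX36, which unwinds G-quadruplexes, had 8.39, 6.67 and 8.20 (0.45), and DHX34, a factor of nonsense-mediated decay, had 6.07, 4.45 and 4.73 (0.35). In all 5 the bound level was the highest of the 3 and the unbound level the lowest, which is also the order of the bound and unbound array medians.

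The helicases with several nuclear and cytoplasmic roles were mostly on the unbound side. In this role 1 of 5 was above 0, against 46.2% of all genes, and the median was -0.53. Beside DDX5 this role held DHX9 (RNA helicase A), with 8.46 in bound, 7.77 in unbound and 9.07 in total RNA (-0.58), DDX20 (gemin 3 of the SMN complex), with 6.91, 6.18 and 6.81 (-0.53), and DDX1, a part of the tRNA ligase complex, with 9.92, 9.07 and 10.27 (-0.42). The exception was DDX17 (p72), with 11.13, 9.65 and 9.53 (0.22). Of the antiviral genes, DDX60 had 5.11, 3.78 and 4.63 (0.068) and DDX60L 5.75, 4.92 and 4.38 (-0.43), all of them dim. DDX25, a helicase of male germ cells, passed the filter with 6.41, 5.55 and 5.78 (-0.40). The mitochondrial helicase DHX30 had 8.09, 6.84 and 7.81 (-0.01), and DDX59, DHX32, DHX40 and DHX57 lay between -0.39 and 0.49.

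The 15 DHX genes had a median of 0.35 in bound minus unbound, with 10 of 15 above 0. The 30 DDX genes had a median of 0.0033, with 15 of 30 above 0. Of all genes, 46.2% were above 0. The ranges overlapped widely, from -0.58 to 1.10 for DHX and from -1.33 to 0.80 for DDX genes. Of the DDX genes 10% were at least 2-fold lower and 0% higher, and of the DHX genes 0% were lower and 6.67% higher. Of all genes 9.91% were lower and 6.35% higher. In unbound minus total RNA all 15 DHX genes were below 0, from -1.30 to -0.047, and 7 of 30 DDX genes were above 0. Of all genes, 54.5% were below 0 and 45.5% above. At least 2-fold lower in unbound minus total RNA were 6 of 15 DHX genes (40%) and 5 of 30 DDX genes (16.7%), against 9.96% of all genes. These comparisons share the unbound array.

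Close relatives were set side by side by their differences. DDX5 and DDX17, which form heterodimers, stood apart in bound minus unbound RNA at -1.13 and 0.22. DDX17 was the only 1 of the 2 with a bound level well above its unbound level, 11.13 against 9.65, where DDX5 had 10.27 against 10.14. The mRNA export factors DDX19A and DDX19B had 0.58 and -0.024, with bound, unbound and total levels of 8.49, 6.65 and 7.75 for DDX19A and 8.44, 7.21 and 7.72 for DDX19B. Both probe sets of DDX19A gave a like value (0.58 and 0.59), as did those of DHX16 (0.52 and 0.42). The nucleolar pair DDX21 and DDX50 had 0.031 and -0.60, and DDX60 and DDX60L 0.068 and -0.43. Probe sets of near-identical relatives can pick up each other's transcripts, and how far they do so was not tested here.

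Against total RNA, the helicases lay lower on both polysome arrays than the genes as a whole. In bound minus total RNA their median was -0.48 (all genes -0.14), and 7 of 45 (15.6%) were above 0, against 37.8% of all genes. In unbound minus total RNA the median was -0.56 (all genes -0.07), and again 15.6% were above 0, against 45.5%. The size of these medians depends on the scaling. After quantile normalization the helicase medians were -0.25 in bound and -0.52 in unbound minus total RNA. After the lowess step they were -0.26 and -0.40. Both comparisons share the total RNA array, so they are given side by side and not as separate evidence. Total RNA was purified with another column kit than the polysome fractions, and the effects of kit and of RNA source cannot be told apart. Some lineage markers also differed between the fractions and total RNA. The endoderm markers TTR and AFP had 8.22 and 7.08 in bound, 4.82 and 5.58 in unbound and 3.96 and 3.68 in total RNA. The endoderm markers SOX17 (4.45, 3.19 and 3.77), FOXA2 (4.48, 3.65 and 3.98) and GATA6 (5.31, 4.69 and 5.30) did not follow them. The neural marker PAX6 had 8.02, 7.48 and 5.27, while MAP2 (8.26, 6.75 and 6.98) and SOX1 (4.32, 3.56 and 3.88) did not follow it. In all, 6 of 6 trophoblast and amnion markers exceeded background on both polysome arrays but 4 of 6 in total RNA. As deposited, TFAP2A (8.71, 8.16 and 6.16), GATA3 (7.69, 6.88 and 5.73) and VTCN1 (7.82, 6.17 and 5.20) were higher on both polysome arrays than in total RNA. So were KRT7 (6.55, 4.95 and 4.73) and HAND1 (5.54, 4.23 and 3.72). CDX2 lay at the line on each array (4.41, 3.58 and 3.72, against 4.40, 3.56 and 3.76), as did HAND1 in total RNA. Past the 99th percentile of the tissue-restricted genes were 4 of the 6 in bound, 4 in unbound and 3 in total RNA. Of 3 measured neural markers 2, 2 and 3 exceeded background on the bound, unbound and total RNA arrays, of 5 endoderm markers 5, 4 and 4, and of 8 fibroblast markers 6 on each. Whether cells of these lineages were present, and their part in the helicase values, was not tested.

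**Figure D3:**
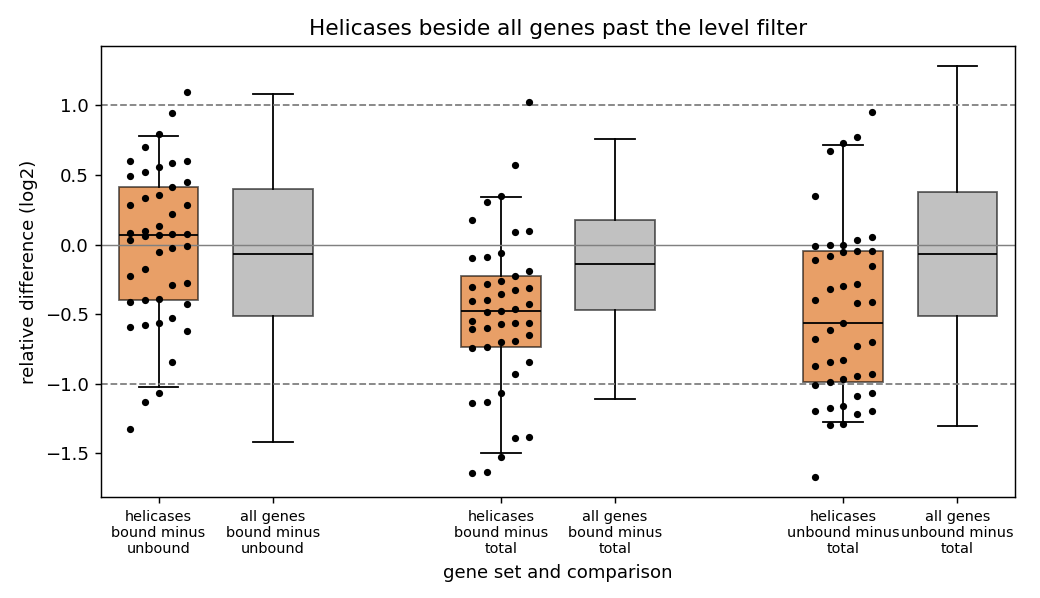
Relative differences (y axis, log2) in the 3 comparisons (x axis) for the 45 helicases (orange boxes, with each gene as a black point spread sideways for legibility) and all 12063 genes past the filter (grey boxes). Boxes span the quartiles with the median as a line, whiskers the 5th to 95th percentile, and dashed lines 2-fold. The helicase median is 0.07 in bound minus unbound, -0.48 in bound minus total and -0.56 in unbound minus total RNA.

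In bound minus total RNA, 8 of 45 helicases (17.8%, against 6.41% of all genes) were at least 2-fold lower and 1 (2.22%, against 2.66%) was higher. DDX21, which couples ribosomal RNA transcription to its processing, had 8.86 in bound, 7.57 in unbound and 9.47 in total RNA, a relative difference of -1.64. DHX9 also had -1.64 and DDX10 -1.52. DHX15 (-1.39), DDX1 (-1.38), DHX8 (-1.14), DDX24 (-1.13) and DDX39A (-1.07) completed the 8. DHX8 had 7.83, 6.61 and 7.94 and DDX24, of ribosome assembly, 9.49, 8.15 and 9.60. As deposited, the median of the members was 0.55. None reached 2-fold lower on that scale (0.572% of all genes did so), and 7 were at least 2-fold higher (15.6%, against 40.1% of all genes). After the lowess step 3 members were at least 2-fold lower, against 3.68% of all genes, and after quantile normalization also 3, against 3.42%.

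The member above total RNA was DDX55, a helicase of large ribosomal subunit assembly, with 7.35 in bound, 6.01 in unbound and 5.29 in total RNA. Its total RNA level was the lowest of the 3, unlike in most members, and gave relative differences of 1.03 for bound and 0.95 for unbound minus total. DDX17 (0.57), DDX60L (0.35), DHX34 (0.31) and DDX56 (0.17), whose levels were 8.25, 6.70 and 7.05, came next in bound minus total RNA. All 9 spliceosomal helicases were below 0 in this comparison, from -1.39 (DHX15) to -0.091 (DHX35). So were 84.4% of the 45 helicases and 62.2% of all genes. The median of the 9 was -0.43, beside -0.48 for the 45 helicases. DHX38 (-0.097) and DDX41 (-0.19), highest of this role in bound minus unbound RNA, were close to 0.

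In unbound minus total RNA, 11 of 45 helicases (24.4%, against 9.96% of all genes) were at least 2-fold lower and 0 were higher (against 8.09%). DDX21 was lowest at -1.67, followed by DHX36 (-1.30), DHX37 (-1.29) and DDX24 (-1.22). The unbound level of DHX37 (4.14) lay between the 95th and 99th percentile of the tissue-restricted genes (3.56 and 4.44), so its value rests on dim signal. The spliceosomal helicases DHX38 (-1.19), DDX23 (-1.18), DDX46 (-1.16) and DHX8 (-1.09), together with DHX32 (-1.19), DHX9 (-1.07) and DDX54 (-1.01), made up the rest. DHX32, a less studied member, had 8.14 in bound, 6.39 in unbound and 7.82 in total RNA. All 9 spliceosomal helicases were below 0, with a median of -0.99, and DDX42 (-0.085) was the least so. Below 0 were also 84.4% of the 45 helicases and 54.5% of all genes. As deposited 18 members were at least 2-fold lower (40%, against 16% of all genes) and 0 higher (against 5.42%). The count was 6 after quantile normalization (9.69% of all genes) and 5 after the lowess step (7.55% of all genes). DDX21, DHX32, DHX36, DHX37 and DHX38 were those 5.

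Few members, 7 of 45, had a relative difference above 0 in unbound minus total RNA. After DDX55 they were DDX60L (0.77), DDX28 (0.73), DDX5 (0.67) and DDX17 (0.35), followed by DDX31 (0.053) and DDX59 (0.03). DDX28 and DDX5 are also the lowest in bound minus unbound RNA, which shares the unbound array. DDX21 was at least 2-fold below total RNA on both polysome arrays, also after quantile normalization and after the lowess step, while its bound level was 0.61 below total RNA as deposited. DDX24, DHX8 and DHX9 passed 2-fold on both arrays after centring, but each missed it on at least 1 array after quantile normalization and after lowess, and none did so in bound RNA as deposited. The plot of both fractions against total RNA shows each member's pair of values.

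**Figure D4:**
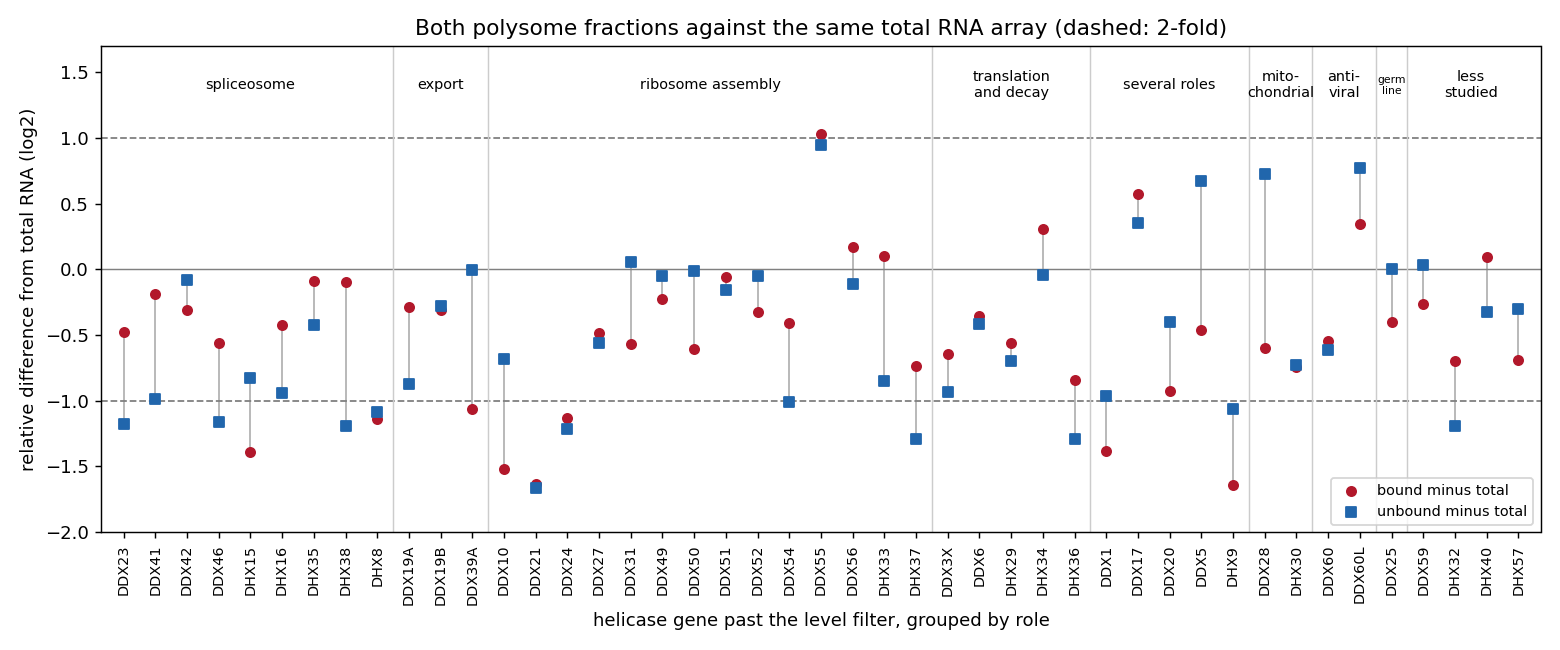
Relative differences from the total RNA array (y axis, log2) of the bound (red circles) and unbound (blue squares) array for the 45 helicases past the filter (x axis, grouped by role), with a grey line joining both values of a gene and dashed lines at 2-fold. DDX55 is the highest gene and DDX21 has both points near -1.6, while DDX5, DDX28 and DHX38 have points far apart.

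RNA helicases that the DDX and DHX names leave out were listed as well. Of 24 listed symbols, which include older names of SKIC2 and MTREX beside the current ones, 19 were named on the arrays and 15 passed the filter. Their median was 0.29 in bound minus unbound RNA (all genes -0.07), with 3 at least 2-fold higher (20%, against 6.35% of all genes) and 1 lower (6.67%, against 9.91%). The highest were HELZ (1.52) and DICER1 (1.31), which cuts microRNA precursors, and UPF1 (1.17), the helicase of nonsense-mediated decay, also passed 2-fold. The lowest were EIF4A2 (-1.26), a DEAD box helicase of cap-dependent initiation, and MTREX (-0.79), the helicase of the nuclear exosome. EIF4A2 had 10.88 in bound, 10.88 in unbound and 10.56 in total RNA, and EIF4A3, the DEAD box core of the exon junction complex, had 8.84, 6.78 and 8.56 (0.80). In bound minus total RNA 4 of the 15 were at least 2-fold lower (26.7%, against 6.41% of all genes) and 0 higher (against 2.66%), from ASCC3 (-1.68) and MTREX (-1.49) to DICER1 (0.24) and HELZ (0.32). In unbound minus total RNA 7 were lower (46.7%, against 9.96%) and 0 higher (against 8.09%), from ASCC3 (-2.37) and SNRNP200 (-2.08), the helicase of the U5 particle, to MOV10 (0.39) and EIF4A2 (0.55).

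Proteins that switch helicases on or anchor them, the G-patch, MIF4G and related cofactors, were measured for 38 of 41 listed genes. In bound minus unbound RNA their median was 0.08, with 0 at least 2-fold higher (against 6.35% of all genes) and 3 lower (7.89%, against 9.91%), a share near that of all genes. The lowest were EIF4B (-1.66), which stimulates eIF4A, and CWC22 (-1.29), which brings EIF4A3 to the spliceosome, and EIF4ENIF1 (-1.24) was the third past 2-fold. The highest were ALYREF (0.87), an export adaptor, and RBM8A (0.77), a core protein of the exon junction complex. Against total RNA, 3 were at least 2-fold lower (7.89%, against 6.41% of all genes) and 1 higher (2.63%, against 2.66%) in bound RNA, from EIF4B (-1.40) and EIF4G1 (-1.33) to SUGP2 (0.71) and RBM5 (1.49). In unbound RNA 6 were lower (15.8%, against 9.96%) and 0 higher (against 8.09%), from EIF4G1 (-1.92), the scaffold of eIF4A, and ALYREF (-1.30) to RBM5 (0.87) and EIF4ENIF1 (0.91).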

How the data were processed

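Values are log2 expression of each probe set as the authors deposited them. Partek 6.5 and RMA are the tools listed, per the submitters' processing notes. The genome build and the scaling between arrays are not given in the sources used here. All 33297 values of the bound array have 7 decimals with the same last 2, against at most 5 decimals on the others, so a constant may have been added. Centring removes any constant. Per the labels' protocols, polysome pools were purified with PureLink and total RNA with RNeasy Plus columns.

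Of the probe sets, 19460 list 1 symbol and were used, 1754 list several and 12083 are not listed. For 769 genes with several probe sets the brightest was kept. A gene was compared if its mean level lay above the 95th percentile of that mean over 482 tissue-restricted genes, as relative differences with a 2-fold line and no test. Members, lists and named genes were chosen with earlier results of these data known. In full are given members 2-fold apart, the 5 highest and lowest of each comparison, cytoplasmic mRNA helicases and paralog pairs. Promoter windows came from RefSeq (GRCh38.p14). Scripts were run on simulated arrays with planted differences, constant offsets and no trend with level, which checks the calculation only and not the values given here. Tools were Python 3.11.15 with pandas 2.3.3 and numpy 2.4.6, lowess from statsmodels 0.14.6, and matplotlib 3.10.9 for plots.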

Additional observations from a re-analysis of the deposited data

How the results depend on the processing

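No paired analysis was possible because each source has 1 array. In bound minus unbound RNA, 1 of 45 helicases was higher and 3 were lower, against 6.35% and 9.91% of all genes. As deposited the counts were 30 and 0 (against 61.4% and 1.56%) with a median of 1.33. After quantile normalization 4 were higher (against 10.8%) with a median of 0.17. Without the level filter 2 of 49 were higher (against 5.29%). At 1.5-fold 6 were higher and 6 lower, against 17.7% and 22.1% of all genes. At 3-fold the counts were 0 and 0, against 0.846% and 3.88%. In bound minus total RNA (1 higher, 8 lower, median -0.48) the values as deposited were 7, 0 and 0.55, the counts against 40.1% and 0.572% of all genes. Quantile normalization gave 3 lower (against 3.42%) with a median of -0.25. The lowess step (span 0.3) gave 2 higher and 3 lower (against 3.22% and 3.68%) with -0.26. At 1.5-fold 17 were lower, against 18.5% of all genes. At 3-fold 0 were higher and 2 lower, against 0.572% and 1.53%. In unbound minus total RNA (0 higher, 11 lower, median -0.56) the values as deposited were 18 lower (against 16.0% of all genes) and -0.80. Quantile normalization gave 6 lower (against 9.69%) and the lowess step 5 lower (against 7.55%) with a median of -0.40. The 99th percentile of background as filter gave 1 higher (against 10.4%). At 1.5-fold 4 were higher and 22 lower, against 17.5% and 22.3% of all genes. At 3-fold 1 was lower, against 2.60%. For single genes past 2-fold, DDX39A (0.20) and DDX5 (0.13) changed sign in bound minus unbound RNA as deposited. Of the other gene values under an alternative scaling, filter or probe set rule, 104 stayed past 2-fold on the same side and 38 kept the side only. These genes have 1 probe set each, so the filter and probe set settings changed only the centring and could move their values little. The count of 104 is therefore no measure of how firm the values are. The mean of all probe sets moved no count or median beyond these limits (1.5 times, or 0.1 for a median). The cause of these changes was not tested. Precision is limited by the single array per source and by signal over background.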
